A study of Mus musculus with 56 samples.

Results

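The epithelial sodium channel ENaC and the genes through which aldosterone acts on it were followed in the mouse kidney over the day under daytime- and nighttime-restricted feeding. The set was chosen with earlier results of these data known. It holds 7 genes, chosen by name for their place in this pathway: the channel subunits Scnn1a, Scnn1b and Scnn1g, the kinase Sgk1, the ubiquitin ligase Nedd4l, the mineralocorticoid receptor gene Nr3c2 and the enzyme gene Hsd11b2. They are 7 of the 17027 genes in the deposited table, and all 7 were among the 12103 genes tested, which had a mean of at least 1 TPM (reads scaled to gene length and to the library's total). Poly(A) RNA of whole kidney was sequenced from 56 female C57BL/6J mice, all 9 weeks old and all kept first for 7 days on a 12 h light and 12 h dark cycle. For the next 7 days the mice were fed only in the daytime (DRF) or only at night (NRF, the control), and 4 mice of each regimen were taken at ZT0, 4, 8, 12, 16, 20 and 24, ZT being zeitgeber time with lights on at ZT0. Each mouse gave 1 library, so p-values rest on the spread between mice, and no mouse was followed over time. Comparisons of group means used 1 estimate of that spread shared by all 14 groups. In the rhythm fits the spread also held the departure of group means from the fitted curve. Values are of one organ taken whole, so fewer cells of a type and less RNA per cell cannot be told apart.

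Between 22315374 and 24650458 reads per library were recovered from the deposited values. Pearson correlation between mice of a group had a median of 0.989. Adipose tissue markers summed to more than 100 TPM in 15 of the 56 libraries (10 NRF and 5 DRF) and ranged from 0.25 to 3004 TPM. At NRF ZT12 3 of the 4 libraries were above 100 TPM. Beside the calls described for single members that are lost without these 15 libraries, the value without them is given, and the part of fat in the remaining differences was not tested. Of the markers of the collecting duct principal cell, the main site of ENaC, all 7 were detected, and their sum ranged from 461 to 2098 TPM. Adrenal markers, of which 4 of 7 were recovered, summed to 7.84 to 17.8 TPM per library.

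Sodium leaves the tubular fluid of the distal nephron through ENaC, a channel assembled from an alpha (Scnn1a), a beta (Scnn1b) and a gamma (Scnn1g) subunit in the apical membrane of principal and connecting tubule cells. Aldosterone binds the mineralocorticoid receptor (Nr3c2) and, with glucocorticoids acting through their own receptor, raises transcription of Sgk1. The SGK1 kinase phosphorylates the ubiquitin ligase NEDD4-2 (Nedd4l), which otherwise marks ENaC for removal from the membrane. The enzyme 11-beta-hydroxysteroid dehydrogenase type 2 (Hsd11b2) inactivates glucocorticoids in these cells and so keeps the mineralocorticoid receptor free for aldosterone.

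Averaged over all 56 mice, Hsd11b2 was the most abundant of the 7 at 381 TPM, above 96.6% of tested genes. Scnn1a followed at 219 TPM, Sgk1 at 150 TPM, Scnn1b at 98.3 TPM, Scnn1g at 74.4 TPM, Nedd4l at 36.5 TPM and Nr3c2 at 10.2 TPM. These levels are per length and so can be set against each other. Mice of a group differed far more in Sgk1 than in the other members. The pooled SD within groups was 0.52 on the log2(TPM + 1) scale for Sgk1, above 97.5% of tested genes, against 0.11 to 0.20 for the other 6 and 0.14 for the median gene. With the 14 groups in order of their mean level, neighbours differed by no more than the larger of their SDs in all 13 pairs for Scnn1b and Hsd11b2, in 12 for Scnn1g, Nedd4l and Nr3c2, in 11 for Sgk1 and in 10 for Scnn1a.

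**Figure D1:**
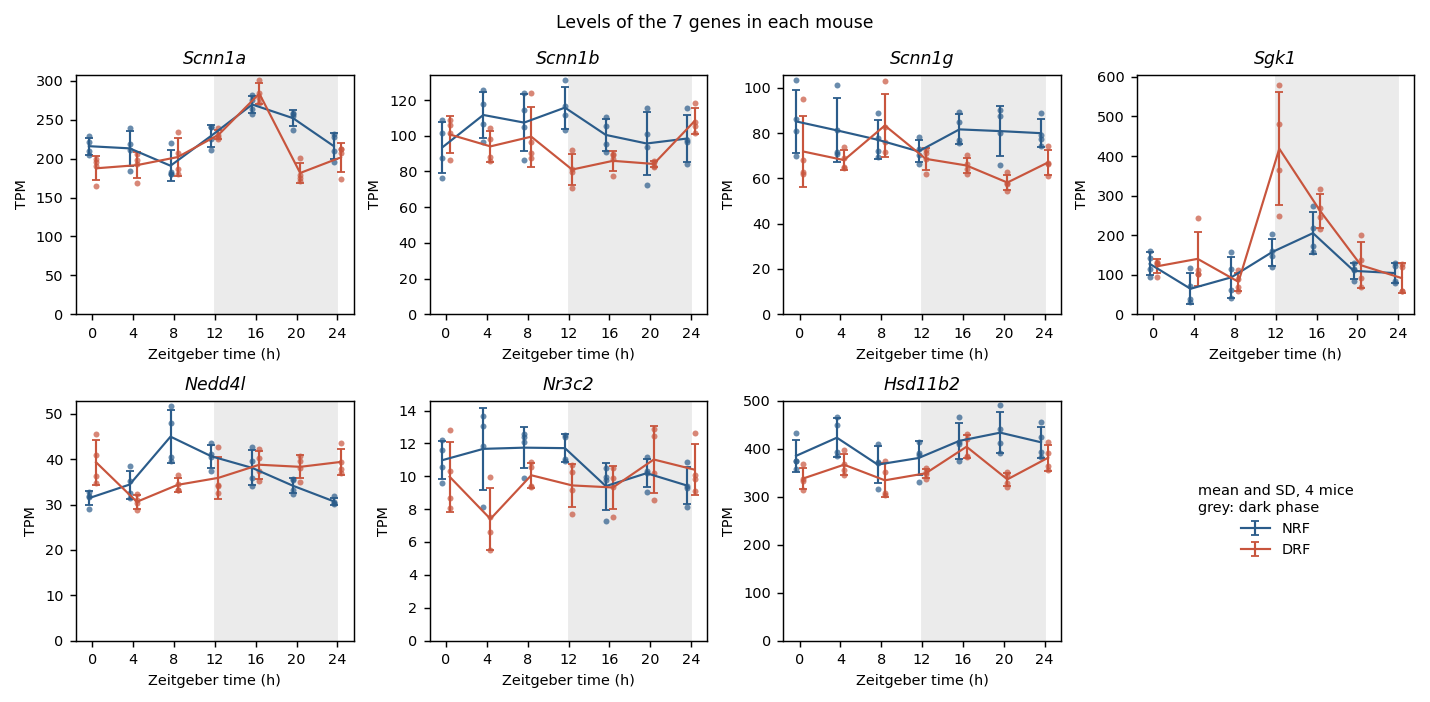
Level of each of the 7 genes in TPM (y axis from 0, a scale of its own for each gene) against zeitgeber time in hours (x axis), with 1 point per mouse, lines through the mean of 4 mice, bars of 1 SD and the dark phase in grey. Sgk1 reaches its highest mean, 418 TPM, at DRF ZT12, Scnn1a its highest, 284 TPM, at DRF ZT16, and Nedd4l its highest, 45.0 TPM, at NRF ZT8.

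Sgk1 (chromosome 10, 21882184 to 21999903, + strand, GRCm38) had the widest daily range of the 7 genes and was the only member called higher over the day under DRF. At ZT12, lights off, the 4 DRF mice had 365, 482, 248 and 578 TPM (418 ± 143, mean ± SD, n = 4). The 4 NRF mice at ZT12 had 202, 148, 159 and 120 TPM (157 ± 34.2). The groups did not overlap, with every DRF mouse above every NRF mouse, where 22.8% of tested genes had groups that did not overlap in either direction. The difference, DRF minus NRF, was 1.36 ± 0.35 (log2 ± SE, adjusted p = 0.0042, limma). Without the libraries rich in adipose markers, which leaves 1 NRF mouse at ZT12 that is then assumed to vary like the other groups, it was 1.52 (adjusted p = 0.30). At ZT4 the DRF mice had 113, 103, 102 and 242 TPM and the NRF mice 38.7, 31.4, 71.0 and 116 TPM. These groups overlapped through the highest NRF mouse, and the difference was 1.19 ± 0.35 (adjusted p = 0.0089). Without the DRF mouse at 242 TPM it was 0.89 (adjusted p = 0.057), and without the adipose-rich libraries 1.54 (adjusted p = 0.0038). At ZT0, 8, 16, 20 and 24 the Sgk1 difference lay between -0.25 and 0.37 and did not pass the threshold of 0.05 on the adjusted p.

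Sgk1 transcript had a 24-h rhythm in both regimens. The peak of the fitted cosine was at ZT16.4 ± 0.77 (SE) under NRF and at ZT14.1 ± 0.86 under DRF, and peak to trough was 2.64-fold under NRF (adjusted p = 0.0013) and 3.13-fold under DRF (adjusted p = 0.0024). The study called rhythms with MetaCycle rather than this cosine, and named shifts of 0 to 4 h phase-locked. Here the shift between the regimens was -2.24 h, within that class, but its 95% interval (-4.60 to 0.12 h) ran past 4 h. The test of a difference between the 2 rhythms gave an adjusted p of 0.23. Under DRF a 12-h component beside the daily one had an amplitude of 0.65 ± 0.15 (log2) and peaks at 1.89 h and 12 h later (adjusted p = 0.0055; 0.12 without replicate number 1 and 0.098 without number 2). The group means under DRF followed that shape, reading 121, 140, 81.9, 418, 261, 124 and 91.3 TPM in order of time from ZT0 to ZT24. Under NRF they ran from 64.4 TPM at ZT4 to 205 TPM at ZT16. The 12-h component under NRF had an amplitude of 0.31 ± 0.13 and did not pass (adjusted p = 0.56). No test compared 12-h components between the regimens.

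The same place in the feeding cycle falls 12 h apart in the regimens, so each DRF time was also set against the NRF time 12 h away. Compared in this way, Sgk1 at DRF ZT16 was 2.18 ± 0.35 (log2) above NRF ZT4 (adjusted p = 3.8e-06). The DRF mice had 316, 216, 269 and 245 TPM there, all above the highest NRF mouse at 116 TPM. How often other genes did not overlap in that pairing was not counted. Of all tested genes 33.1% differed in it, and the median tested gene was at -0.10. Sgk1 at DRF ZT12 was 1.81 ± 0.30 above NRF ZT0 and ZT24 averaged (adjusted p = 1.75e-05). The other 4 meal-matched differences of Sgk1 did not pass and ranged from -0.62 to 0.47. Both meal-matched calls kept their side of the threshold in each of 68 alternative analyses.

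Windows of 4 of the 7 members were taken from the RefSeq promoter table (GRCm38.p6, 250 bases before each annotated start). There were 6 for Sgk1 and 1 each for Scnn1b, Scnn1g and Nr3c2. No window of Scnn1a, Nedd4l or Hsd11b2 was searched, so their promoters are not described. The windows were searched on both strands for the E-box CACGTG, bound by CLOCK and BMAL1, for the related CACGTT, for the ROR and REV-ERB hexamer AGGTCA, and for the hexamer AGAACA that glucocorticoid and mineralocorticoid receptors recognize. A further search was for the full receptor element, AGAACA and its reverse complement TGTTCT with 3 bases between them. Only exact letters counted, so looser matches were missed. Of 32851 windows in the table, 6.02% held CACGTG, 3.85% CACGTT, 14% AGGTCA and 16.1% AGAACA, and 3 windows (0.00913%) held the full receptor element. One of those 3 belongs to Sgk1, at chr10:21993640-21993889. It is printed with the windows of Scnn1b and Scnn1g, which lie on chromosome 7, for the subunits whose day patterns are compared further on. Capitals mark the matches.

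Sgk1, chr10:21993640-21993889, + strand: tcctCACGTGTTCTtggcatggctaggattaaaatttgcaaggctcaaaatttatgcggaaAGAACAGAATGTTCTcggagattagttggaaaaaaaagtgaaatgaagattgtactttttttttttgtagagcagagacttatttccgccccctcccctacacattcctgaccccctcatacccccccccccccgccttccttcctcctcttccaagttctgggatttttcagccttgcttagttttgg
Scnn1b, chr7:121864788-121865037, + strand: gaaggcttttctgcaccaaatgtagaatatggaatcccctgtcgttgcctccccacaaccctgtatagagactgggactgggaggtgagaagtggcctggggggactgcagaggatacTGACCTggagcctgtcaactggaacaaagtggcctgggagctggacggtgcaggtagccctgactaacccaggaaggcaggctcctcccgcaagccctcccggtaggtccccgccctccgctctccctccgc
Scnn1g, chr7:121734229-121734478, + strand: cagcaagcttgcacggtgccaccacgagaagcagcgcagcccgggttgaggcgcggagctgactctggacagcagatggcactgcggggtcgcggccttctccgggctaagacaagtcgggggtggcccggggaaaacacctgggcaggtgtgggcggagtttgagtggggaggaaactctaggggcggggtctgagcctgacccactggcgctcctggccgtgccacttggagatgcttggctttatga

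In the Sgk1 window the full receptor element begins 189 bases before the start. An E-box begins 246 bases before it and overlaps a further TGTTCT at 242 bases. Among the other 5 Sgk1 windows 2 held a single receptor hexamer, 2 a single AGGTCA and 1 none of the motifs. The Scnn1b window held TGACCT, the reverse complement of AGGTCA, 132 bases before the start, and the Scnn1g and Nr3c2 windows held no match. A match describes these letters and not a bound factor, and no binding was measured in these samples.

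Scnn1a (chromosome 6, 125320659 to 125344943, + strand, GRCm38), the alpha subunit, was highest at night in both regimens and fell earlier under DRF. At ZT16 the DRF mice had 301, 285, 277 and 271 TPM and the NRF mice 282, 264, 275 and 258 TPM, and these overlapped (difference 0.07 ± 0.08, adjusted p = 0.67). At ZT20 the NRF mice still had 258, 255, 237 and 258 TPM while the DRF mice had 179, 171, 201 and 175 TPM. No DRF mouse reached the lowest NRF mouse, where 14.2% of tested genes did not overlap in either direction, and the difference was -0.47 ± 0.08 (log2, adjusted p = 2.2e-05; -0.41 and 0.060 without the adipose-rich libraries). The cosine peak was at ZT17.5 ± 0.51 under NRF and at ZT14.2 ± 0.83 under DRF, a shift of -3.25 h (95% interval -5.24 to -1.25 h). Amplitude was 0.22 in each regimen, with a difference of 0.00 (95% interval -0.11 to 0.12), and the rhythms differed (adjusted p = 0.020; 0.14 without the adipose-rich libraries). Under DRF Scnn1a also had a 12-h component with an amplitude of 0.17 ± 0.04 and peaks at 2.80 h and 12 h later (adjusted p = 0.0088; 0.084 without the adipose-rich libraries).

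Matched by place in the feeding cycle, Scnn1a differed between the regimens in 4 of 6 comparisons. It was lower at DRF ZT4 than at NRF ZT16 (-0.49, where 18.0% of tested genes differed) and at DRF ZT8 than at NRF ZT20 (-0.32, 14.8%). It was also lower at DRF ZT0 and ZT24 averaged than at NRF ZT12 (-0.24, 10.2%). It was higher at DRF ZT16 than at NRF ZT4 (0.41, 33.1%), where the median tested gene was at -0.10. Adjusted p ran from 1.3e-05 to 0.015. Without the adipose-rich libraries the first and the last held, and the other 2 did not (adjusted p = 0.081 and 0.31). By clock time the Scnn1a differences did not pass at ZT0 (-0.21, adjusted p = 0.062), at ZT4 (-0.15) or at ZT8, 12, 16 and 24 (-0.10 to 0.08). At ZT0 the groups did not overlap, as for 20.1% of tested genes.

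The beta and gamma subunits had lower fitted amplitudes than Scnn1a, and their fitted peaks lay at other times. No test compared the genes, and the DRF amplitude of Scnn1a was 0.22 ± 0.05 (SE), close to the DRF values below. Scnn1b (chromosome 7, 121865038 to 121918514, + strand, GRCm38) was rhythmic under DRF, peaking at ZT2.60 ± 0.98 with an amplitude of 0.16 ± 0.04 (adjusted p = 0.0084). This call was lost in 5 of 69 alternative analyses (adjusted p up to 0.10), among them effective library sizes (0.052) and no ZT24 (0.055). Under NRF its rhythm did not pass (adjusted p = 0.060). The difference between the rhythms passed (adjusted p = 0.0077; 0.076 without the adipose-rich libraries). Scnn1b at ZT12 was 112, 117, 131 and 103 TPM in the NRF mice and 79.9, 81.3, 70.7 and 92.2 TPM in the DRF mice. The groups did not overlap, which again stands against 22.8% of tested genes, and the difference was -0.51 ± 0.12 (adjusted p = 0.0015; -0.44 and 0.40 without the adipose-rich libraries, 1 NRF mouse being left).

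Scnn1g (chromosome 7, 121734479 to 121768475, + strand, GRCm38) was also rhythmic under DRF, peaking at ZT7.25 ± 0.96 with an amplitude of 0.17 ± 0.05 (adjusted p = 0.018), and not called under NRF (adjusted p = 0.30). The DRF call was lost without 1 mouse, DRF ZT8 replicate 1 at 103 TPM (adjusted p = 0.053), and without the adipose-rich libraries (0.093). Its rhythms differed between the regimens (adjusted p = 0.014; 0.31 without the adipose-rich libraries). Scnn1g at ZT20 was 87.5, 90.4, 66.0 and 79.9 TPM under NRF and 54.3, 62.8, 57.7 and 58.0 TPM under DRF. The groups did not overlap, as for 14.2% of tested genes at ZT20. The difference was -0.46 ± 0.11 (adjusted p = 0.0036, with -0.27 and 0.47 without the adipose-rich libraries). Scnn1a, Scnn1g and Hsd11b2 were the members that differed at ZT20, 3 of 7, all lower under DRF, where 16.9% of tested genes differed in either direction.

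Because the subunits combine in one channel, their ratios were taken within each mouse, where the scaling of a library cancels. Scnn1a over Scnn1b rose to 3.32 ± 0.38 (SD, n = 4) at DRF ZT16, with every mouse between 3.09 and 3.89, and was lowest at NRF ZT8 with 1.80 ± 0.23. At ZT12 it was 2.87 ± 0.25 under DRF and 2.0 ± 0.23 under NRF, with no overlap between 2.59 as the lowest DRF mouse and 2.33 as the highest NRF mouse. Scnn1b over Scnn1g was highest at NRF ZT12 with 1.61 ± 0.15 and at DRF ZT24 with 1.61 ± 0.04, which are 12 h apart. It was lowest at NRF ZT0 with 1.10 ± 0.05, and under DRF at ZT12 with 1.18 ± 0.13. At ZT12 the NRF mice lay between 1.42 and 1.76 and the DRF mice between 1.03 and 1.29. At ZT24 the order was the opposite, with 1.58 to 1.66 under DRF and 1.13 to 1.30 under NRF. The mice of ZT0 lay lower and wider under DRF than those of ZT24, from 1.15 to 1.64. These ratios were looked at after the levels were known and were not tested. How often ratios of other gene pairs do not overlap was not counted. At ZT12 Scnn1b by itself did not overlap either, as for 22.8% of tested genes.

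**Figure D2:**
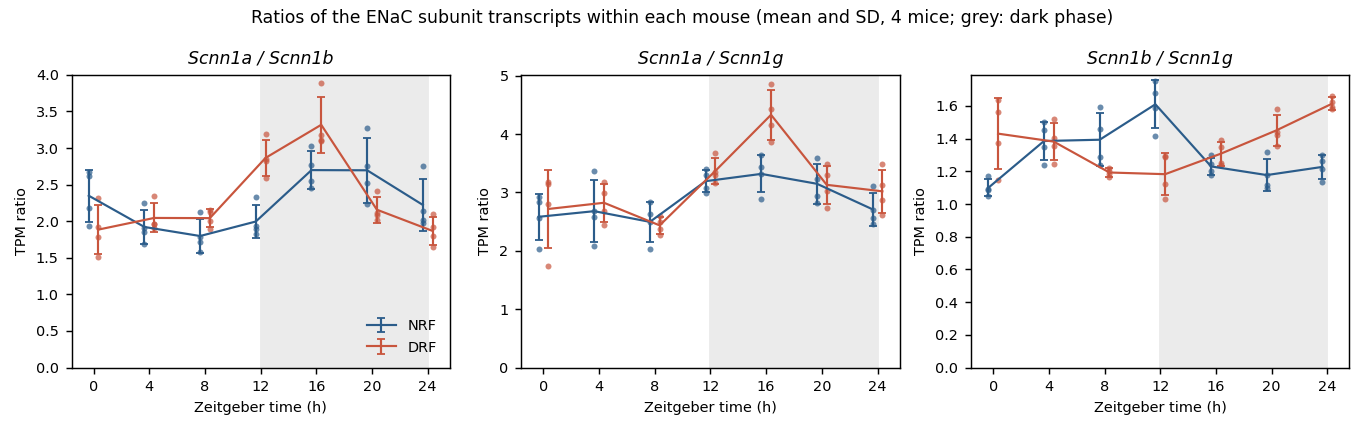
Ratios within a mouse of Scnn1a to Scnn1b, Scnn1a to Scnn1g and Scnn1b to Scnn1g (y axes from 0, TPM over TPM) against zeitgeber time in hours (x axis), with 1 point per mouse, lines through the mean of 4 mice of each regimen, bars of 1 SD and the dark phase in grey. Scnn1b over Scnn1g is high at NRF ZT12 (1.61) and at DRF ZT24 (1.61), and Scnn1a over Scnn1b is highest at DRF ZT16 (3.32).

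Nedd4l (chromosome 18, 64887705 to 65217828, + strand, GRCm38), whose product removes ENaC from the membrane, had the widest phase shift of the 3 members rhythmic in both regimens. Its peak was at ZT10.8 ± 0.57 under NRF (amplitude 0.23 ± 0.03, adjusted p = 3.6e-06) and at ZT19.0 ± 0.91 under DRF (amplitude 0.14 ± 0.04, adjusted p = 0.013; 0.13 without replicate number 1 and 0.061 without number 3). The shift was 8.19 h (95% interval 5.99 to 10.4 h), at the lower edge of the 8 to 12 h that the study calls phase-inverted. It fell below 8 h with median-of-ratios scaling (6.81 h), effective library sizes (6.70 h), no adipose-rich libraries (7.15 h), no ZT24 (7.59 h) and no replicate number 4 (6.45 h), so the class depended on the processing. The rhythms differed with an adjusted p of 1.05e-06, and this call of a difference, unlike the class of the shift, held in all 69 alternative analyses.

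The turn of the Nedd4l pattern was visible mouse by mouse. At ZT8 the NRF mice had 40.5, 39.6, 48.0 and 51.7 TPM and the DRF mice 34.5, 36.5, 33.1 and 33.2 TPM, so that every DRF mouse was lower (difference -0.37 ± 0.08, adjusted p = 0.0011; 21.4% of tested genes did not overlap). At ZT24 the NRF mice had 30.6, 30.04, 30.4 and 31.8 TPM and the DRF mice 36.9, 37.8, 43.5 and 39.4 TPM, so that every DRF mouse was higher (0.35 ± 0.08, adjusted p = 0.0024; 20.4% did not overlap). ZT0, the same clock time in other mice, gave 0.31 ± 0.08 (adjusted p = 0.0060; 0.25 and 0.12 without the adipose-rich libraries), again with no overlap (20.1% of tested genes). The mean over the day did not differ detectably, with a difference of -0.03 (95% interval -0.10 to 0.03). Meal-matched differences of Nedd4l passed at DRF ZT4 against NRF ZT16 (-0.30, adjusted p = 0.0064; -0.31 and 0.055 without the adipose-rich libraries) and at DRF ZT12 against NRF ZT0 and ZT24 averaged (0.20, adjusted p = 0.049). The second was lost in 38 of 68 alternative analyses (adjusted p = 0.13 without the adipose-rich libraries). Sgk1 over Nedd4l, taken within a mouse, averaged 12.0 at DRF ZT12 (5.81 to 16.9) and 3.89 at NRF ZT12 (2.76 to 4.91).

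Nr3c2, the mineralocorticoid receptor gene (chromosome 8, 76899442 to 77245012, + strand, GRCm38), rested on 263 to 640 reads per library, the fewest of the members. Its 24-h rhythm did not pass in either regimen (adjusted p = 0.058 under NRF and 0.33 under DRF), whereas the difference between the rhythms did (adjusted p = 0.036). Leaving out any 1 of 11 libraries ended that call, as did leaving out the adipose-rich ones (adjusted p = 0.22). At ZT4 Nr3c2 was 13.7, 8.11, 13.1 and 11.8 TPM in the NRF mice and 7.55, 6.62, 5.49 and 9.94 TPM in the DRF mice. One NRF mouse lay inside the DRF range, and the difference was -0.60 ± 0.14 (adjusted p = 0.0013; -0.42 and 0.087 without replicate number 3), the only single time at which Nr3c2 passed.

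Hsd11b2 (chromosome 8, 105518755 to 105523988, + strand, GRCm38) had no called 24-h rhythm in either regimen (adjusted p = 0.17 and 0.59), and its amplitudes of 0.08 and 0.04 were the lowest or next to lowest of the set. It did have a 12-h component under DRF with an amplitude of 0.12 ± 0.03 and peaks at 3.14 h and 12 h later (adjusted p = 0.019; 0.089 without the adipose-rich libraries). Hsd11b2 at ZT20 was 491, 412, 391 and 441 TPM under NRF and 345, 329, 351 and 320 TPM under DRF. These did not overlap, as for 14.2% of tested genes at ZT20. The difference was -0.36 ± 0.08 (adjusted p = 0.0012, with -0.29 and 0.20 without the adipose-rich libraries). At the matched place in the feeding cycle, DRF ZT8 against NRF ZT20, it was lower as well (-0.38 ± 0.08, adjusted p = 0.00083).

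Counted over the set, 3 of 7 members were rhythmic under NRF (Scnn1a, Sgk1 and Nedd4l), where 54.3% of tested genes were, and 5 of 7 under DRF (the same 3 with Scnn1b and Scnn1g), where 36.1% were. The 3 that oscillated under both regimens stand against 25.5% of tested genes. Rhythms differed between the regimens for 5 of 7 members, against 45.5% of tested genes. A 12-h component passed for 3 of 7 members under DRF (Sgk1, Scnn1a and Hsd11b2) against 24.7% of tested genes. Under NRF it passed for 0 of 7 by limma, with 0.678% of tested genes called. The unadjusted p was under 0.05 there for 1 of the 7, Scnn1a (0.040).

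**Figure D3:**
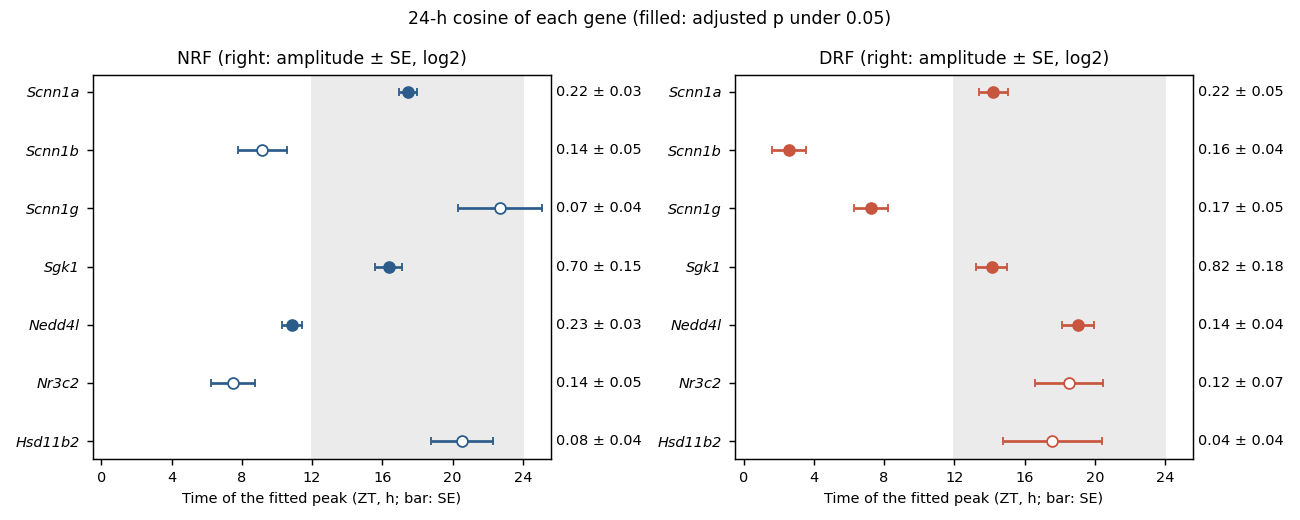
Fitted time of the 24-h peak (x axis, zeitgeber time in hours) for each of the 7 genes (y axis) under NRF (left) and DRF (right), with bars of 1 SE on either side, filled points where the adjusted p was under 0.05, the amplitude beside each point and the dark phase in grey. Nedd4l moves from ZT10.8 to ZT19.0, whereas Scnn1a moves from ZT17.5 to ZT14.2 and Sgk1 from ZT16.4 to ZT14.1.

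By clock time, DRF and NRF differed for 1 of 7 members at ZT0 (17.0% of tested genes), 2 at ZT4 (27.6%), 1 at ZT8 (15.1%), 2 at ZT12 (18.8%), 3 at ZT20 (16.9%) and 1 at ZT24 (14.8%). At ZT16 0 of 7 passed by limma (4.86% of tested genes), with 1 of 7, Scnn1g, at an unadjusted p under 0.05 (0.010). The 4 DRF and 4 NRF mice did not overlap for 0 of 7 members at ZT4 (18.6% of tested genes) and for 2 of 7 at ZT16 (11.2%), Scnn1b and Scnn1g, both lower under DRF. By place in the feeding cycle, 2 members differed at DRF ZT4 against NRF ZT16 (18.0%), 2 at ZT8 against ZT20 (14.8%), 2 at ZT12 against ZT0 and ZT24 (16.8%), 4 at ZT16 against ZT4 (33.1%), 1 at ZT20 against ZT8 (12.4%) and 1 at ZT0 and ZT24 against ZT12 (10.2%). These comparisons share their samples with those by clock time. In the comparison of DRF ZT16 with NRF ZT4 the median tested gene was itself at -0.10, so that -0.37 for Scnn1b and -0.29 for Scnn1g were -0.27 and -0.19 relative to it. With libraries scaled by the median of ratios the median gene was at 0.01, Scnn1b at -0.25 (adjusted p = 0.13) and Scnn1g at -0.17 (0.29), while Scnn1a and Sgk1 still passed. Mice of ZT24 did not differ from those of ZT0 in any member, in either regimen (0.678% of tested genes under NRF and 0% under DRF) by limma. An unadjusted p under 0.05 was found for 0 members under NRF and for 1 under DRF, Hsd11b2 (0.038).

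**Figure D4:**
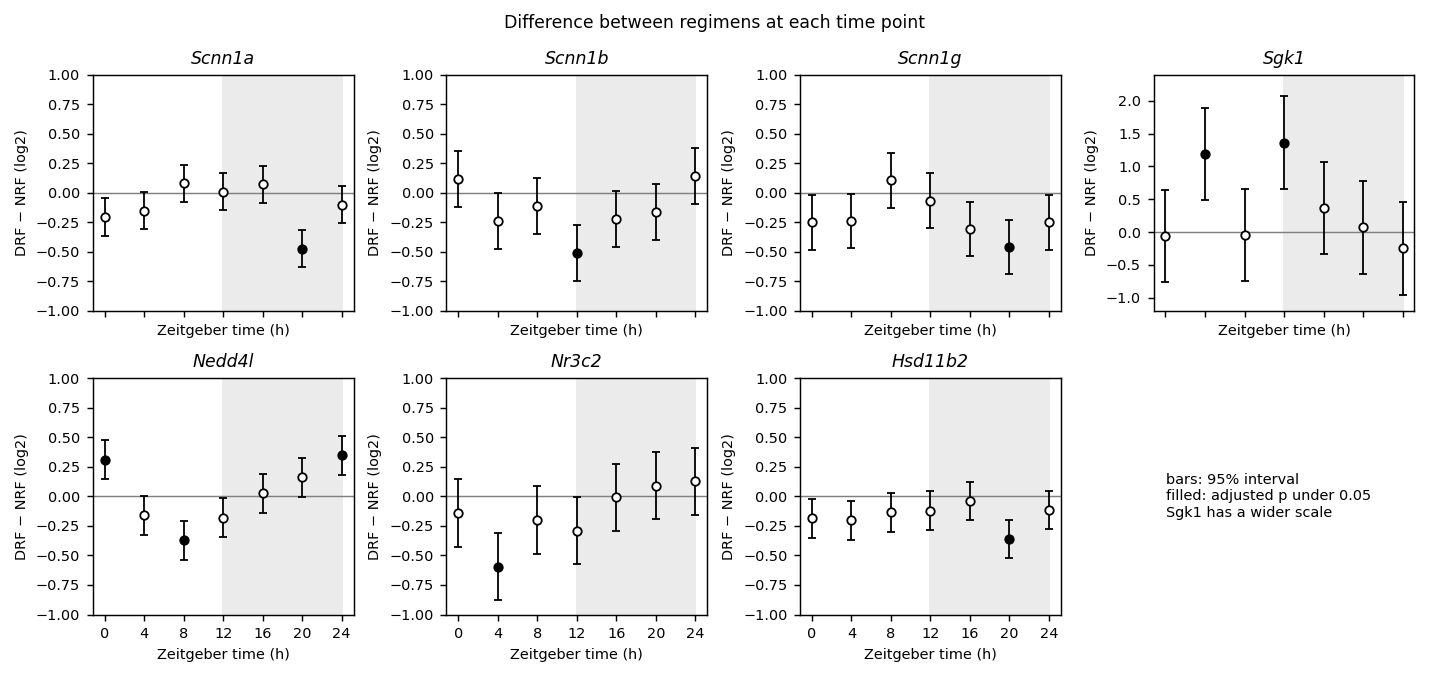
Difference DRF minus NRF on the log2(TPM + 1) scale (y axis, wider for Sgk1) at each zeitgeber time (x axis, hours) for each of the 7 genes, with bars of the 95% interval, filled points where the adjusted p was under 0.05 and the dark phase in grey. Sgk1 is at 1.19 at ZT4 and 1.36 at ZT12, and Nedd4l turns from -0.37 at ZT8 to 0.35 at ZT24.

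Averaged over clock times (mesor), 6 of 7 members differed, where 9.22% of tested genes did. Of these, 5 were lower under DRF (6.08% of tested genes were lower) and 1 was higher (3.14% were higher). Hsd11b2 was lower by -0.17 ± 0.03 (log2 ± SE, adjusted p = 0.00025), a mean of 359 TPM against 403 TPM. Scnn1g was lower by -0.20 ± 0.04 (adjusted p = 0.0018), Scnn1b by -0.19 ± 0.05 (0.0059), Scnn1a by -0.10 ± 0.03 (0.024) and Nr3c2 by -0.17 ± 0.06 (0.044). Sgk1 was higher by 0.47 ± 0.14 (adjusted p = 0.022), 177 TPM against 123 TPM, and Nedd4l did not pass. The Nr3c2 call was lost in 40 of 68 alternative analyses. That of Scnn1a was lost in 7, that of Sgk1 in 5, that of Scnn1b in 3, that of Scnn1g in 1 and that of Hsd11b2 in 0. The median of all tested genes was -0.02 and that of the 7 members -0.17.

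Some cell type markers were also called lower under DRF over the day, where 6.08% of all tested genes were. Of the 6 intercalated cell markers 3 were lower (Atp6v1b1, Atp6v0d2 and Slc26a4), as was 1 of 6 markers of the distal convoluted and connecting tubule (Slc12a3). Among tested immune cell markers 3 of 5 were lower (Ptprc, Cd74 and C1qa), and among tested liver markers 1 of 5. No tested marker of the remaining lists passed. None of 7 principal cell markers passed, and their median difference was 0.11. Adipose markers, none of which passed, had a median difference of -0.58. Without the 15 libraries rich in adipose markers the Hsd11b2 call held at -0.17 (adjusted p = 0.022). The others kept their direction and did not pass, with Scnn1g at -0.17 (0.18), Scnn1b at -0.14 (0.29), Scnn1a at -0.12 (0.20), Nr3c2 at -0.14 (0.52) and Sgk1 at 0.54 (0.14). With median-of-ratios scaling Scnn1a did not pass either (-0.08, adjusted p = 0.18). The part that cell composition plays in these differences was not tested.

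**Figure D5:**
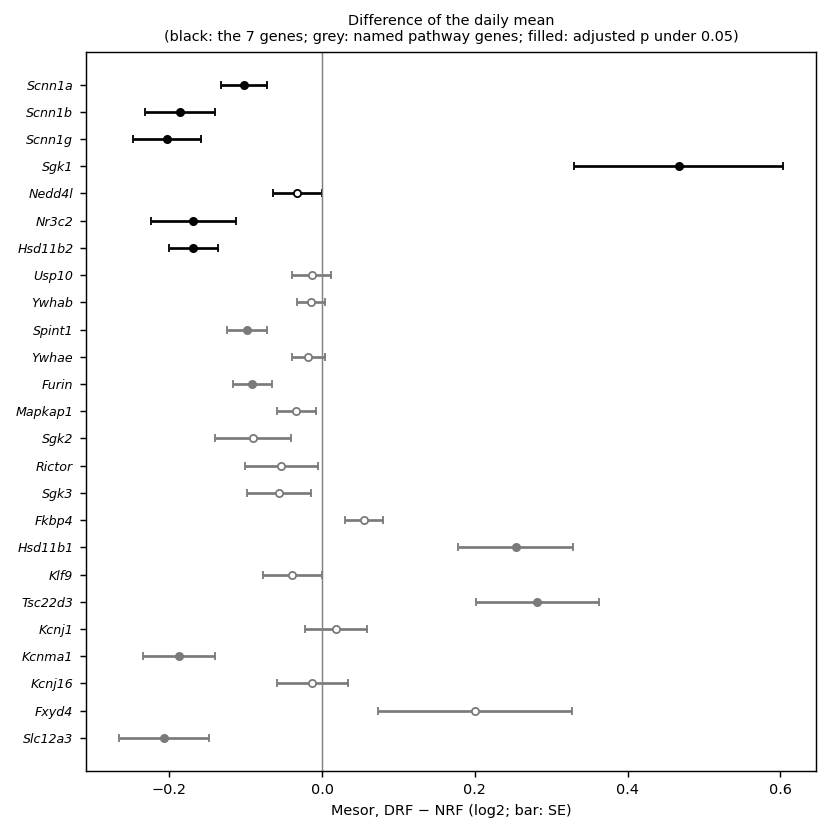
Difference of the mean over clock times, DRF minus NRF, on the log2(TPM + 1) scale (x axis) for the 7 genes (black) and the named genes of the pathway lists (grey), with bars of 1 SE on either side and filled points where the adjusted p was under 0.05. Of the 7, Sgk1 lies above 0 (0.47), Nedd4l is near 0 (-0.03) and the other 5 lie between -0.20 and -0.10.

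Further genes of the pathway came from lists made with earlier results of these data known. Of 13 genes for ENaC cleavage, ubiquitination and trafficking, 8 differed in rhythm between the regimens (45.5% of all tested genes), 10 were rhythmic under NRF (54.3%) and 6 under DRF (36.1%). Usp10, a deubiquitinase, peaked at ZT19.8 under NRF and ZT8.77 under DRF (adjusted p for the difference = 2.66e-08). The 14-3-3 genes Ywhab (0.00094) and Ywhae (0.0014), whose products bind phosphorylated NEDD4-2, also differed. Furin and Spint1, the protease that cleaves ENaC subunits and an inhibitor of membrane serine proteases, differed too and were the 2 genes of the list lower over the day, by -0.09 (adjusted p = 0.014) and -0.10 (adjusted p = 0.012). No gene of the list was higher.

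Of the SGK1 activators and SGK kin, 7 of 8 were tested, 4 differed in rhythm (45.5% of all tested genes) and none in the mean over the day (9.22%). Mapkap1 and Rictor, subunits of the mTORC2 complex that phosphorylates SGK1, were among them: Mapkap1 peaked at ZT23.5 under NRF and at ZT8.89 under DRF (adjusted p for the difference = 9.08e-06). Sgk2, a paralogue, had an amplitude of 0.18 under NRF and 0.39 under DRF (adjusted p for the difference = 0.00018), and Sgk3 also differed (0.016).

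In the list of corticosteroid receptors, chaperones and targets, 14 genes were tested and 6 differed in rhythm (45.5% of all tested genes). Over the day 3 were higher under DRF (3.14%) and none was lower (6.08%). The median difference of the list was 0.12 against -0.02 for all tested genes. Hsd11b1, which regenerates glucocorticoid in other cells, was higher by 0.25 ± 0.08 (adjusted p = 0.024), opposite in sign to Hsd11b2. Tsc22d3, a corticosteroid target known as Gilz, was higher by 0.28 ± 0.08 (adjusted p = 0.018). The other was Per1, a clock gene and corticosteroid target (0.34 ± 0.11, adjusted p = 0.045), named after its value was seen. The Tsc22d3 peak was at ZT15.7 ± 0.31 (SE) under NRF and ZT12.7 ± 0.58 under DRF. These were 0.62 h and 1.45 h before those of Sgk1, whose SEs were 0.77 h and 0.86 h. Mice were taken 4 h apart, and the order of the peaks was not tested. Fkbp4, a chaperone of the receptors, peaked at ZT20.3 under NRF and at ZT9.80 under DRF (adjusted p for the difference = 9.46e-10), and Klf9, another corticosteroid target, had an amplitude of 0.47 under NRF and 0.09 under DRF (0.00014).

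Of 12 partners of ENaC in the distal nephron, 11 were tested and 4 differed in rhythm (45.5% of all tested genes). Over the day 3 were lower (6.08%). Kcnj1, the ROMK potassium channel, had fitted peaks at ZT21.2 under NRF and ZT11.1 under DRF (adjusted p for the difference = 0.00039). Its 24-h rhythm passed under NRF (adjusted p = 0.0029) and did not pass under DRF (0.066). Kcnma1, the BK channel, Kcnj16 and Fxyd4 differed in rhythm with adjusted p of 0.0030, 0.016 and 0.048. Kcnma1 was at 1.01 TPM on average, at the edge of the filter. Slc12a3, the thiazide-sensitive sodium chloride cotransporter, was lower over the day by -0.21 ± 0.06 (adjusted p = 0.018), as was Kcnma1 by -0.19 ± 0.05 (0.0064). Wnk1, a kinase upstream of that cotransporter and named after its value was seen, was lower by -0.18 ± 0.05 (0.023), and none of the list was higher.

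The genes whose 14 group means followed each member most closely are given as a description, over 14 points that share libraries and scaling. For Sgk1 these were Tsc22d3 (Pearson r = 0.90), Zfp35 (0.86) and Nat8f5 (0.86). Tsc22d3 averaged 109 TPM at DRF ZT12, 78.8 TPM at NRF ZT16 and 16.6 TPM at NRF ZT4, the groups in which Sgk1 was highest under each regimen and lowest of all. For Nedd4l, Dgkh (0.93) and Fam126b (0.92) were among them. For Scnn1a they were Stxbp4 (0.92), Cntfr (0.90) and Eif4e3 (0.88), for Scnn1b Hgfac (0.89), Phldb2 (0.86) and Man2b2 (0.85), and for Scnn1g Nhs (0.84), C1ra (0.82) and Myo1d (0.82). For Nr3c2 they were Ubr1 (0.93), Manea (0.88) and Rab11fip2 (0.87). Hsd11b2 was followed least closely, by Trpm6 (0.80), Sympk (0.75) and Lman1 (0.75). Among the members themselves the highest correlation of group means was between Scnn1a and Hsd11b2 (0.66) and the lowest between Scnn1b and Sgk1 (-0.62).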

How the data were processed

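The authors sequenced poly(A) RNA of whole kidney as paired ends on a BGI instrument. The submitters' processing notes name HISAT2, Bowtie2 and RSEM and the builds mm10 and GRCm38.p6, with no version or role for any tool. The deposited table holds 1 score per gene and library and is named for TPM. Its values match log2(CPM + 1) divided by gene length and scaled to a nearly constant column sum (999145 to 999753), so they are neither counts nor TPM as deposited. All 56 columns were mapped to samples and 0 were unused. In 1 NRF ZT24 column the number is not among the sample titles, so that library carries its group and no replicate number.

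Inverting that formula gave whole reads. Gene lengths were the exon union of GENCODE M21, or were found by a search over lengths where those failed. A value was taken as whole within 0.05 of an integer (0.15 above 20000 reads). A gene was kept where at least 50% of its values were whole at the annotated length (14318 genes) or 90% at a searched length (696 genes). These limits were set from the recovery itself, before any comparison of groups. In all, 15002 genes were used, 99.0% of their values came out whole (98.8% in the lowest library), and 1660 fractional genes and 353 without a length were left out, also from the TPM total. Nedd4l has a searched length of 14382 bases against 17659 in the annotation, where its mean would be 29.7 TPM and not 36.5 TPM, and its differences are the same.

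Reads were converted to TPM and to log2(TPM + 1). Genes with a mean of at least 1 TPM (12103) were fitted with limma 3.58.1 in R 4.3.3 (trend, Benjamini-Hochberg adjustment over all tested genes, threshold 0.05), so that fold changes are on the log2(TPM + 1) scale and understate those of low genes. Each regimen was fitted with a 24-h cosine, ZT24 at the phase of ZT0, then with 12-h terms added. The interaction of regimen with the cosine terms tested the difference in rhythm. A fit of 14 group means gave the differences by clock time, by meal-matched time and over the day, with ZT0 and ZT24 sharing the weight of 1 time. Errors and 95% intervals of phase, amplitude and shift are delta-method values with no test of their own. The fits were tested on simulated counts first. Python 3.11.15, numpy 2.4.6, pandas 2.3.3, scipy 1.17.1 and matplotlib 3.10.9 were used besides.

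No 2 libraries were identical (0 pairs). Deviations from group means of libraries that share a replicate number had a median correlation of 0.00, and 141 of 351 pairs were above 0.1, so the numbers were not taken to pair mice. The members and gene lists were chosen with earlier results of these data known. All 7 members are named, with the 3 genes of mean TPM of at least 10 most like each over the 14 group means. One of those genes is not reported here. From each pathway list are named up to 4 genes with the smallest adjusted p for a difference in rhythm and up to 2 for the mean over the day, among those under 0.05. Alternatives covered scaling, pseudocount, filter, ZT24, the replicate block and libraries left out. Leaving out the libraries above 100 TPM of adipose markers was chosen after seeing the data.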

Additional observations from a re-analysis of the deposited data

Results flagged for a closer look

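In 5 of the 98 groups of 4 mice (7 genes in 14 groups), 1 mouse lay so far from the other 3 that its gap exceeded Dixon's critical share of the group's range, and chance gives such a gap in about 5% of groups. Scnn1a at DRF ZT24 was 174.38 TPM in replicate 4, with the others at 206.81 to 212.98 TPM. Scnn1a at NRF ZT8 was 220.54 TPM in replicate 4, with the others at 180.02 to 182.87 TPM. Scnn1a at NRF ZT20 was 237.17 TPM in replicate 3, with the others at 254.61 to 258.29 TPM. Sgk1 at DRF ZT0 was 94.706 TPM in replicate 4, with the others at 127.48 to 133.19 TPM. Sgk1 at DRF ZT4 was 242.39 TPM in replicate 4, with the others at 101.87 to 112.92 TPM, and the ZT4 difference of Sgk1 did not pass without this mouse (0.89, adjusted p = 0.057, limma).

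The 24-h rhythm differed between the regimens, by limma's test of the interaction, for Nedd4l (adjusted p = 1.0486e-06), Scnn1b (0.0076856), Scnn1g (0.013844), Scnn1a (0.019586) and Nr3c2 (0.036326). The Nr3c2 difference was lost in 17 of 69 alternative analyses, that of Scnn1a and that of Scnn1b in 3 each, that of Scnn1g in 2 and that of Nedd4l in 0.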

How the results depend on the processing

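No called difference of a member changed sign under any alternative. Of the 44 calls on members, 41 held with median-of-ratios scaling, 39 with effective library sizes of the deposited values, 37 on the deposited values as given, 44 with a pseudocount of 0.1, 44 with a mean of at least 5 TPM, 41 with no filter and 43 with the replicate block. Without the 15 adipose-rich libraries 21 held, and fewer mice as well as less fat separate that setting from the full set. Counts of members that moved by over 1.5 times were as follows, and the cause was not tested. Without the adipose-rich libraries differential rhythm went from 5 to 1, the mean over the day from 6 to 1, ZT0 from 1 to 0, ZT12 from 2 to 0, ZT20 from 3 to 0, DRF ZT4 against NRF ZT16 from 2 to 1, DRF ZT8 against NRF ZT20 from 2 to 1, DRF ZT12 against NRF ZT0 and ZT24 from 2 to 1, DRF ZT20 against NRF ZT8 from 1 to 0 and DRF ZT0 and ZT24 against NRF ZT12 from 1 to 0. Without ZT24 differential rhythm went from 5 to 3. With no filter DRF ZT12 against NRF ZT0 and ZT24 went from 2 to 1. DRF ZT0 and ZT24 against NRF ZT12 went from 1 to 0 with effective library sizes and on the deposited values. The shared replicate numbers were not taken to pair the mice. The replicate block changed DRF ZT20 against NRF ZT8 from 1 to 2 and ended the mean difference of Nr3c2 (adjusted p = 0.060).

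Leaving out 1 library or 1 replicate number of all groups gave, in members called, 3 to 5 for the 24-h rhythm under NRF, 2 to 5 under DRF, 0 to 4 for the 12-h component under DRF, 2 to 5 for differential rhythm, 2 to 6 for the mean over the day, 1 to 2 at ZT0, 1 to 4 at ZT4, 1 to 2 at ZT8, 2 to 3 at ZT12, 3 at ZT20 and 1 at ZT24. For the meal-matched times it gave 1 to 3 at DRF ZT4, 2 at ZT8, 1 to 3 at ZT12, 2 to 5 at ZT16, 0 to 3 at ZT20 and 0 to 1 at ZT0 and ZT24. The mean difference of Nr3c2 was lost on leaving out 32 of 56 single libraries, and that of Sgk1 on leaving out each of the 4 replicate numbers (adjusted p = 0.057 to 0.11). Over all genes, the count for the mean over the day went from 1116 to 223 without the adipose-rich libraries, for ZT0 from 2056 to 1141, for ZT12 from 2281 to 50, for ZT16 from 588 to 173 and for ZT20 from 2044 to 311. For the meal-matched times it went from 2177 to 1398 at DRF ZT4, from 1792 to 859 at ZT8, from 2035 to 634 at ZT12, from 1496 to 964 at ZT20 and from 1235 to 213 at ZT0 and ZT24. At ZT16 it was 926 with median-of-ratios scaling and 904 with effective library sizes. For the 12-h component under NRF it went from 82 to 147, 150, 25, 32 and 1 with median-of-ratios scaling, effective library sizes, the replicate block, no ZT24 and no adipose-rich libraries, and for ZT24 against ZT0 under NRF from 82 to 33 with a mean of at least 5 TPM and to 47 without those libraries. Depth limited Nr3c2 most, at 263 reads in its lowest library.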

Other observations

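Group means of the principal cell markers, summed over 7 genes, ran from 610 TPM at DRF ZT0 to 1546 TPM at DRF ZT8, and from 692 TPM at NRF ZT20 to 1005 TPM at NRF ZT16. Of these 7 markers 4 differed in rhythm between the regimens (Aqp2, Avpr2, Fxyd4 and Tfap2b; 45.5% of all tested genes differed), with adjusted p by limma from 3.25e-06 for Avpr2, the vasopressin receptor gene, to 0.048 for Fxyd4.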
